A study of Mus musculus with 56 samples.

Results

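The 8 genes described here belong to, or act against, the vascular endothelial growth factor (VEGF) system, and they were followed in thymic epithelial cells (TECs) of mice before, during and after pregnancy. They were the 5 VEGF ligand genes *Vegfa*, *Vegfb*, *Vegfc*, *Vegfd* and *Pgf*, the 2 neuropilin co-receptor genes *Nrp1* and *Nrp2*, and *Cnmd*, which encodes the secreted angiogenesis inhibitor chondromodulin. These 8 of the 50600 genes in the files were listed by name. The genes were selected on FPKM in these same libraries, because *Vegfd* was low in cortical TECs (cTECs) at D6 after a high level at D-2, *Cnmd* was high in medullary TECs (mTECs) at D6, and *Nrp2* was high in late mTECs. Those 3 comparisons are therefore given as descriptions without a test, for all 8 genes.

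The 56 RNA-sequencing libraries came from 28 cTEC and 28 mTEC preparations, each from 1 mouse. Females of the strain B.6SJL-Ptprca Pep3b/BoyJ-CD45.1 (B6.SJL) carried pregnancies from BALB/cJ males, and pups were taken away at birth. NPC denotes non-pregnant control females, D-2 day 18 of gestation, and D0 to D28 the days after parturition. Per cell type there were 3 libraries of NPC, of D-2 and of each of D0, D3, D6 and D12. For each of the other 10 days (D1, D2, D4 and D5, then D8 and D10, then D16 to D28 in steps of 4 days) there was 1. Both cell types were sorted as EpCAM-positive, CD45-negative cells after enzymatic digestion of the thymus, with mTECs binding the lectin UEA1 and cTECs not binding it. Early regeneration was D0 to D12 (18 libraries per cell type) and late regeneration D16 to D28 (4 libraries, each at its own day), so a late group mixes days and has no replicate of a single day.

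VEGF-A drives the sprouting and permeability of blood vessels, VEGF-B and placental growth factor (PlGF, from *Pgf*) bind the receptor FLT1, and VEGF-C and VEGF-D act mainly through FLT4 on lymphatic vessels after proteolytic processing. Neuropilins are transmembrane proteins that bind VEGF ligands and class 3 semaphorins and act beside VEGF receptors or plexins. Chondromodulin was first known from cartilage, which has no vessels. In the thymus the epithelium and the vessels are in close contact, and TECs are a source of VEGF-A.

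Because *Vegfd*, *Nrp2* and *Cnmd* were the genes that the list was built around, the sequence before each of their transcription starts is shown (RefSeq, GRCm38.p6, 5′ to 3′ on the strand of the gene). It was taken from the 250 bases before the RefSeq start, without those that lie inside the gene in GENCODE, whose start was earlier for *Vegfd* and *Nrp2* (144 and 32 bases left off) and not for *Cnmd*. Capitals mark the letters of 3 short motifs that were searched on both strands, namely ACGTG (the core of the element bound by hypoxia-inducible factors), GACGC (the core bound by FOXN1, the master regulator of TECs) and TGTTCT (a steroid receptor half-site). These motifs do not overlap one another in the stretches shown.
*Vegfd*, chrX:164373272-164373377, plus strand: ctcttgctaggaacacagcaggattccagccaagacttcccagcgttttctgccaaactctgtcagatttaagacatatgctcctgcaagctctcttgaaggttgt
*Nrp2*, chr1:62703067-62703284, plus strand: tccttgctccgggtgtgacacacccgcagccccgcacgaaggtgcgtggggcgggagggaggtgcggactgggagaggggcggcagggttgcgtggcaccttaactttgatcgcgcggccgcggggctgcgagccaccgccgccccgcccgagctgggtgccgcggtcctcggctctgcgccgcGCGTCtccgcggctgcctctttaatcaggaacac
*Cnmd*, chr14:79662184-79662433, minus strand: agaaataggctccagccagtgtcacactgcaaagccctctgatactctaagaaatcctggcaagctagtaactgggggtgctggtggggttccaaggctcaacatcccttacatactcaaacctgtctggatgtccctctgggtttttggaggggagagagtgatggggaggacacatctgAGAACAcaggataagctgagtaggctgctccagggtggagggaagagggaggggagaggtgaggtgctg
The *Vegfd* stretch held none of the 3 motifs. The *Nrp2* stretch held GACGC once, on the opposite strand, and the *Cnmd* stretch held TGTTCT once, also on the opposite strand. *Cnmd* also had GACGC beginning 35 bases into the transcript, outside the stretch shown, and among the promoters of the 8 genes ACGTG was found only in one of those listed for *Vegfa*. Over all 32851 RefSeq promoters of 250 bases before and 50 bases after a start, 19.6% held ACGTG, 27.2% held GACGC and 19.0% held TGTTCT, so each of these short strings is common. These matches are strings of letters and are not evidence of binding.

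In GRCm38, *Vegfa* (ENSMUSG00000023951) lay on the minus strand of chromosome 17 from 46016993 to 46032369, and *Vegfb* (ENSMUSG00000024962) on the minus strand of chromosome 19 from 6982473 to 6987651. *Vegfc* (ENSMUSG00000031520) lay on the plus strand of chromosome 8 from 54077606 to 54187096. *Vegfd* (ENSMUSG00000031380) lay on the plus strand of chromosome X from 164373378 to 164402650, and *Pgf* (ENSMUSG00000004791) on the minus strand of chromosome 12 from 85166635 to 85177790. *Nrp1* (ENSMUSG00000025810) was on the plus strand of chromosome 8 from 128358604 to 128503363, and *Nrp2* (ENSMUSG00000025969) on the plus strand of chromosome 1 from 62703285 to 62818695. *Cnmd* (ENSMUSG00000022025) was on the minus strand of chromosome 14 from 79637690 to 79662170. Each value below is the expression of the whole gene, over all its transcripts.

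Library depth ranged from 4561208 to 108547384 expected counts, with a median of 17972567. There were 4 libraries that stood apart from the others of their cell type. Of the 10068 genes whose mean FPKM reached 5 in cTECs, D3 replicate 2 lacked any count for 14.26% and D20 for 4.15%, beside 0.68% for the median cTEC library. Of the 10502 such genes in mTECs, D3 replicate 1 lacked any count for 9.84% and D0 replicate 2 for 4.68%, beside 0.595% for the median mTEC library. The median summed FPKM of 8 cTEC markers was 7400 for cTECs (1320 to 11300) and 1600 for mTECs (781 to 4690), and that of 8 mTEC markers 1990 in cTECs (1190 to 2910) and 4210 in mTECs (2740 to 6180). The medians therefore went with the labels of the cell types. Each cell type also held the markers of the other at well above a trace. For both sums the ranges overlapped between the cell types. FPKM divides a count by the effective length that RSEM weighed over transcripts, and for *Vegfd* this length ranged from 834.3 to 1967.2 bases and for *Vegfa* from 730.5 to 3367.5 bases. Descriptions are given in FPKM. Where groups of a gene were apart in FPKM but overlapped in TMM-scaled counts scaled to library size (CPM), which do not use that length, this is said, and all tests were run on counts.

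**Figure D1:**
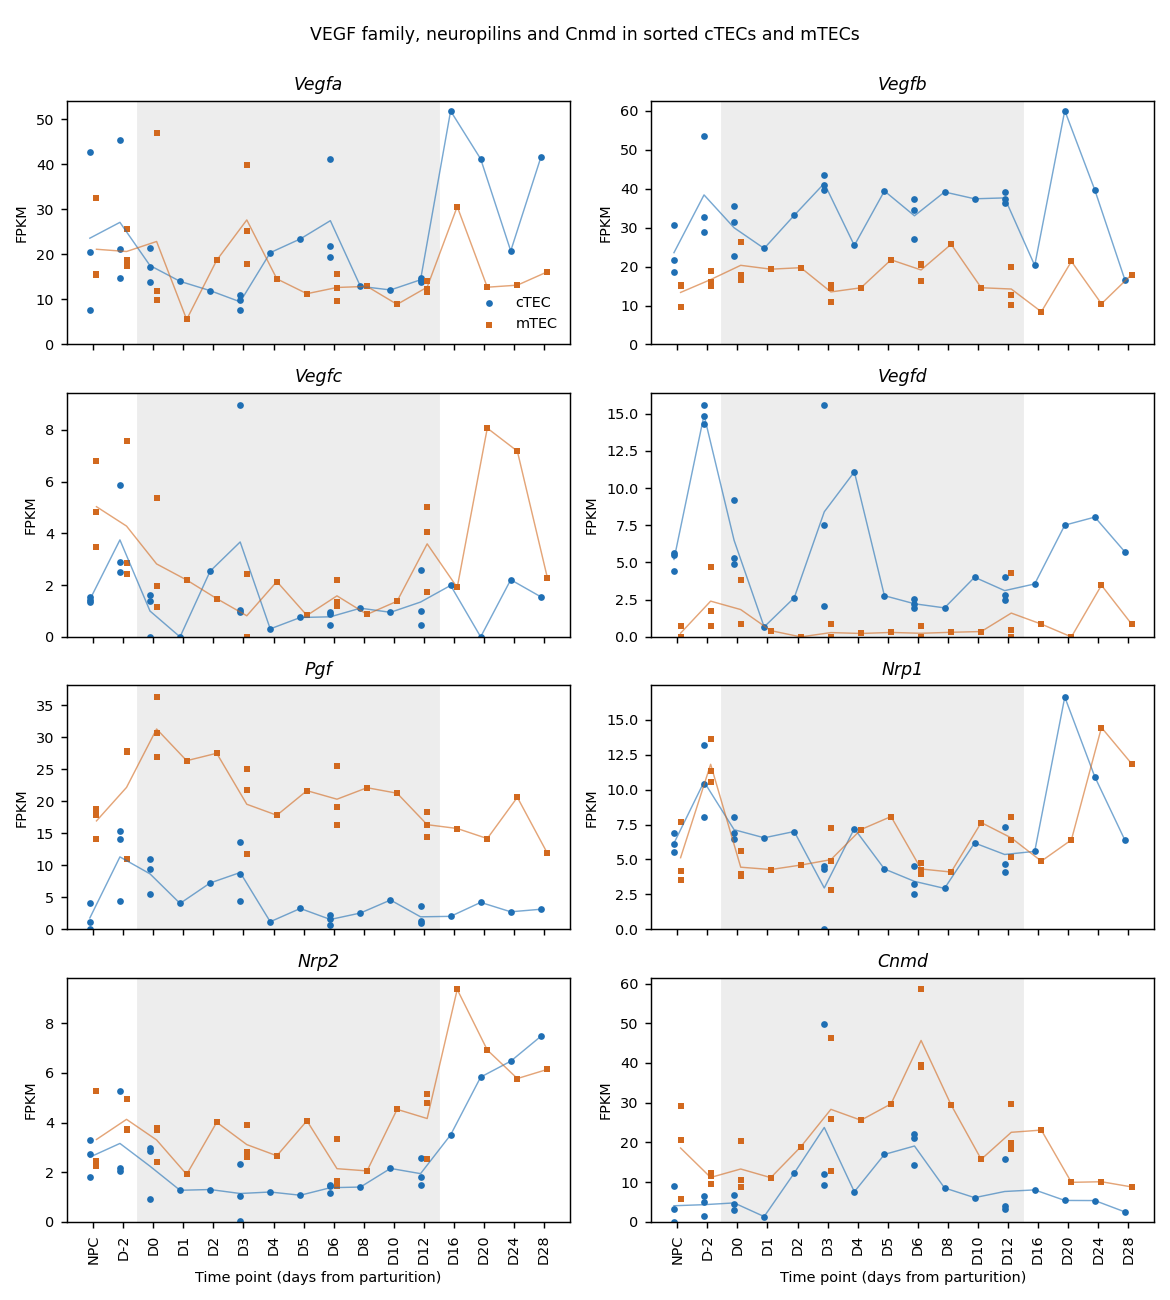
FPKM (vertical axes, linear, each gene on its own scale) of the 8 genes in each of the 56 libraries against time point (horizontal axes, NPC, D-2 and D0 to D28), with 1 point per library (blue circles for cTECs, orange squares for mTECs), lines joining the means, and grey shading over early regeneration (D0 to D12). *Vegfd* peaks in cTECs at D-2 (14.3 to 15.6), the mean of *Pgf* is higher in mTECs at every time point, and *Cnmd* in mTECs has its highest mean at D6 (39.1 to 58.5).

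The clearest feature of the 8 genes was a division between the cell types. *Vegfd* and *Vegfb* were higher in cTECs, whereas *Pgf* and *Cnmd* were higher in mTECs, and these differences were called by limma-voom, for which a gene had to differ by a factor of 2 or more with an adjusted p of 0.01 or less. The cell types were compared within time points over all 56 libraries. These included the libraries whose values chose *Vegfd*, *Cnmd* and *Nrp2*, so the tests of those genes do not stand apart from that choice. At these thresholds 4 of the 8 genes were called, against 21.2% of all 18394 genes tested. Of the 18394, 4.7% were called higher and 16.5% lower in cTECs. edgeR called 4 of the 8 and 3615 of all genes, and DESeq2 called 3 of the 8 and 3935 of all genes.

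**Figure D2:**
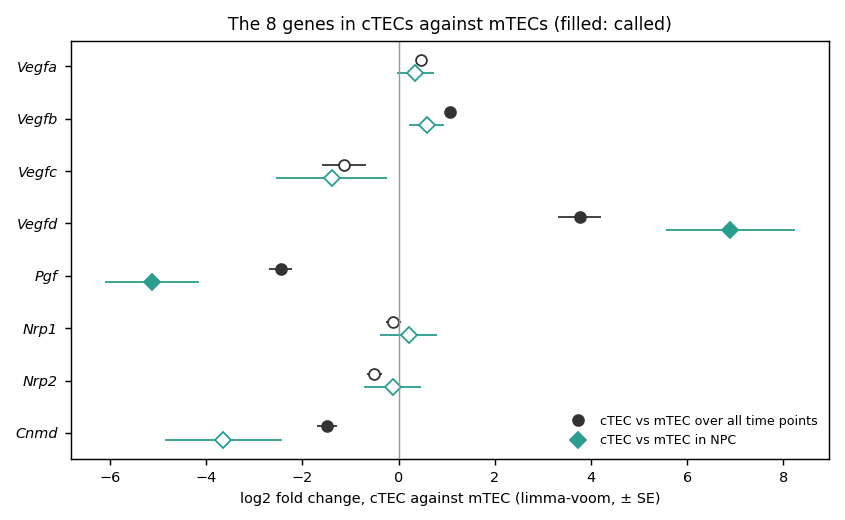
Fitted limma-voom log2 fold change of cTECs over mTECs (horizontal axis, positive where cTECs are higher) for each of the 8 genes (vertical axis), over all time points (dark circles) and in NPC alone (green diamonds), with bars of 1 standard error either side and filled symbols where a gene was called. Over all time points *Vegfd* (3.77) and *Vegfb* (1.06) lie on the cTEC side, *Pgf* (−2.45) and *Cnmd* (−1.49) on the mTEC side, and *Nrp1* (−0.11) is close to 0.

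*Vegfd*, the gene of the lymphangiogenic ligand VEGF-D, ranged from 0.67 to 15.6 FPKM in cTECs with a median of 4.69, and from 0 to 4.72 FPKM in mTECs with a median of 0.455 (n = 28 each). Its mean was higher in cTECs at 16 of 16 time points. The fitted difference was a log2 fold change of 3.77 (SE 0.443, limma-voom adjusted p = 5.72e-10), or 13.6-fold. Leaving out the 4 libraries that stood apart gave a log2 fold change of 3.47. Over the 11 alternatives of the processing the log2 fold change ranged from 2.30 to 3.77, so its size depended on the method. Mean FPKM was 6.04 in cTECs and 0.953 in mTECs. In mTECs 9 of 28 libraries had no *Vegfd* count at all, which allows up to between 0.028 and 0.658 CPM at their depths, and the median library had 16.5 counts. The highest mTEC value, 4.72 FPKM in D-2 replicate 4, rested on 318 counts. The next 3, of 4.31, 3.80 and 3.47 FPKM at D12, D0 and D24, rested on 51, 45 and 97 counts and short effective lengths.

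In cTECs *Vegfd* was highest before birth. It measured 5.50, 5.65 and 4.46 FPKM in the 3 NPC libraries, 14.3, 14.8 and 15.6 FPKM at D-2, and 5.33, 9.22 and 4.92 FPKM at D0. All 3 D-2 libraries lay above all NPC and D0 libraries. At D3 the values of 2.09, 15.6 and 7.52 FPKM spread widely, and the highest was from the library with the most undetected genes. At D6 they were 2.22, 1.91 and 2.55 FPKM, and at D12 2.84, 4.01 and 2.48 FPKM. The means in order were 14.9 ± 0.65 at D-2, 8.41 ± 6.80 at D3, 6.49 ± 2.37 at D0, 5.20 ± 0.648 in NPC, 3.11 ± 0.80 at D12 and 2.23 ± 0.32 at D6 (SD, n = 3). Among neighbours in that order, NPC and D12 did not overlap in FPKM (in CPM they did), and the other adjacent pairs overlapped in FPKM. The single libraries showed 0.67 FPKM at D1 and 11.1 FPKM at D4, so the course between birth and D6 was uneven. The D4 value and the highest D3 value rested on short effective lengths of 868 and 834 bases, and in CPM they were 9.93 and 11.7. In CPM the D3 mean of 8.43 lay below those of D0 (12.6) and NPC (10.1). All D3 libraries lay below all D-2 libraries in CPM (24.3 to 30.2). The 4 late libraries measured 3.56, 7.51, 8.05 and 5.71 FPKM.

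As a description of the comparison that chose the gene, *Vegfd* in cTECs was lower at D6 than at D-2 by a difference of −2.50 in log2(FPKM + 0.5), or −2.94 in log2(CPM + 0.5), and the ratio of mean FPKM was 0.149. In this comparison 5 of the 8 genes lay wholly lower at D6 (*Vegfc*, *Vegfd*, *Pgf*, *Nrp1* and *Nrp2*) and *Cnmd* lay wholly higher, whereas the groups did not overlap for 24.9% of all genes. D12 against D0 used other libraries of the same postpartum course. There *Vegfd* had a log2 fold change of −1.09 (SE 0.399, limma-voom adjusted p = 0.166) and was not called. D-2 against NPC, which shared the D-2 libraries with the choice of the gene, gave a log2 fold change of 1.40 (SE 0.509, limma-voom adjusted p = 0.424), also not called. All D12 libraries were below all NPC libraries in FPKM but not in CPM, where D12 reached 8.01 and NPC went down to 7.97. The log2 fold change of −0.86 (SE 0.561, limma-voom adjusted p = 0.835) was not called.

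*Pgf*, the gene of placental growth factor, showed the opposite cell type. It ranged from 0 to 15.4 FPKM in cTECs with a median of 3.83, and from 10.9 to 36.3 FPKM in mTECs with a median of 19.9. The mean was higher in mTECs at all 16 time points. Its log2 fold change of cTECs over mTECs was −2.45 (SE 0.242, limma-voom adjusted p = 4.63e-12), so that mTECs had 5.46-fold more. Without the 4 libraries that stood apart it was −2.43.

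In cTECs, *Pgf* was highest around birth. The 3 NPC libraries had 1.17, 0 and 4.17 FPKM, from 17, 0 and 42 counts. At D-2 the values were 15.4, 4.41 and 14.2 FPKM and at D0 11.0, 5.50 and 9.50 FPKM, above every NPC library. They then were 8.59, 13.7 and 4.37 FPKM at D3, 0.70, 1.63 and 2.30 FPKM at D6, and 1.34, 0.93 and 3.6 FPKM at D12. The D6 and D12 libraries lay below all D-2 and D0 libraries. The late libraries had 2.03, 4.21, 2.74 and 3.14 FPKM.

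The difference of *Pgf* between D6 and D-2 in cTECs was −2.44 in log2(FPKM + 0.5), with a ratio of mean FPKM of 0.136, given as a description. D-2 against NPC had a log2 fold change of 4.23 (SE 1.26, limma-voom adjusted p = 0.26), which was not called. It ranged from 2.07 to 5.68 when single libraries, among them those of both groups, were left out. The large size rests in part on the NPC library without a count. D12 against D0 gave −2.09 (SE 0.873, limma-voom adjusted p = 0.246), not called.

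In mTECs, *Pgf* had 18.8, 17.9 and 14.2 FPKM in NPC, 27.9, 10.9 and 27.8 FPKM at D-2, and 30.7, 36.3 and 26.9 FPKM at D0. It was 25.5, 16.3 and 19.2 FPKM at D6, 18.3, 14.4 and 16.3 FPKM at D12, and 15.8, 14.2, 20.6 and 11.9 FPKM in the late libraries. The D0 group thus lay above NPC, D12 and the late libraries without overlap. D12 against D0 gave a log2 fold change of −1.0 (SE 0.304, limma-voom adjusted p = 0.165), not called. Whether the change from NPC to D-2 differed between cell types was tested as an interaction. For *Pgf* that difference was a log2 value of 3.65 (SE 1.17, limma-voom adjusted p = 0.383), and none of the 24 interactions of the 8 genes passed an adjusted p of 0.05. Among all 18394 genes tested, 0 passed for D-2 against NPC, 0 for D12 against NPC and 24 for D12 against D0.

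*Vegfa*, the gene of the main angiogenic ligand, was high in both cell types. It ranged from 7.60 to 51.8 FPKM in cTECs with a median of 18.4, and from 5.54 to 46.8 FPKM in mTECs with a median of 15.0. Between cell types the log2 fold change was 0.48 (SE 0.109, limma-voom adjusted p = 0.000234), below a fold-change of 2. Libraries of 1 group spread widely. In cTECs the NPC values were 7.64, 20.4 and 42.7 FPKM and the D-2 values 45.4, 21.2 and 14.7 FPKM, while at D12 they were 13.9, 14.8 and 14.4 FPKM. In mTECs the D0 values were 9.78, 46.8 and 11.9 FPKM.

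Late cTEC libraries had 51.8, 41.2, 20.8 and 41.5 FPKM of *Vegfa*, against 7.60 to 41.1 FPKM with a median of 14.2 in the 18 early ones. In FPKM only the D24 library was within the early range. In CPM the late values were 110, 64.1, 52 and 85.8, and only 1 of 4 was above all early libraries, whose highest was 98.1. Their log2 fold change was 0.90 (SE 0.18, limma-voom adjusted p = 0.0034), or 1.87-fold, just short of the fold threshold. With the D24 library left out it was 1.07 and the gene was called. Late mTEC libraries had 30.6, 12.7, 13.2 and 16.1 FPKM of *Vegfa*.

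*Vegfb*, whose product binds FLT1, was the steadiest ligand gene. It ranged from 16.6 to 60.1 FPKM in cTECs (33.9 ± 9.92, SD, n = 28) and from 8.40 to 26.4 FPKM in mTECs (16.6 ± 4.57). It was higher in cTECs at 15 of 16 time points, with a log2 fold change of 1.06 (SE 0.0981, limma-voom adjusted p = 5.59e-13). This value lay close to the threshold, and it fell below a fold-change of 2 with DESeq2 (0.94) and limma-trend (1.00). At D12 the cTEC values of 39.3, 37.4 and 36.3 FPKM lay above the NPC values of 21.7, 18.5 and 30.6 FPKM. The log2 fold change there was 0.84 (SE 0.308, limma-voom adjusted p = 0.701) and was not called.

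*Vegfc*, the other lymphangiogenic ligand gene, was low, at a median of 1.23 FPKM in cTECs (0 to 8.98) and 2.21 FPKM in mTECs (0 to 8.07). Its log2 fold change between cell types was −1.13 (SE 0.464, limma-voom adjusted p = 0.039), not called. In cTECs it had 5.88, 2.88 and 2.49 FPKM at D-2, above the NPC values of 1.44, 1.53 and 1.35 FPKM and the D6 values of 0.46, 0.98 and 0.89 FPKM. In CPM the D-2 values of 4.65, 2.98 and 6.07 overlapped with the NPC values of 3.44, 3.6 and 1.96, and only the distance from D6 held. The highest cTEC value was again in D3 replicate 2. Its counts were few, and the median library held 35 of them among cTECs and 74 among mTECs.

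*Nrp1*, the co-receptor gene for VEGF-A and semaphorin 3A, had similar levels in both cell types, with 0 to 16.6 FPKM in cTECs (median 6.28) and 2.83 to 14.4 FPKM in mTECs (median 5.38), and the log2 fold change between them was −0.11 (SE 0.154, limma-voom adjusted p = 0.599). In mTECs the NPC values were 3.52, 7.65 and 4.21 FPKM, the D-2 values 13.6, 10.5 and 11.3 FPKM, and the D0 values 3.82, 5.58 and 3.94 FPKM. The D-2 group stood above all NPC, D0 and D12 libraries and above the D6 values of 4.75, 3.95 and 4.26 FPKM. D-2 against NPC gave a log2 fold change of 1.12 (SE 0.288, limma-voom adjusted p = 0.0466), which passed an adjusted p of 0.05 but not the 0.01 of a call. The D-2 libraries also entered the comparison that chose *Cnmd*.

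In cTECs, *Nrp1* followed a like order, with 6.09, 6.89 and 5.51 FPKM in NPC, 10.4, 8.06 and 13.2 FPKM at D-2, and 4.50, 3.28 and 2.52 FPKM at D6. The D-2 libraries were above the other groups named. D-2 against NPC gave a log2 fold change of 0.68 (SE 0.581, limma-voom adjusted p = 0.847), not called. D6 minus D-2 was −1.50 in cTECs and −1.35 in mTECs in log2(FPKM + 0.5), both as descriptions. The only library without an *Nrp1* count was cTEC D3 replicate 2.

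*Nrp2*, the co-receptor gene for VEGF-C and VEGF-D, was higher late. In mTECs the 4 late libraries (D16, D20, D24, D28) measured 9.36, 6.92, 5.77 and 6.14 FPKM, and the 18 early ones 1.44 to 5.16 FPKM with a median of 3.07. All 4 late libraries lay above all 18 early ones, and also above the NPC values of 2.25, 2.43 and 5.27 FPKM and the D-2 values of 3.75, 4.93 and 3.70 FPKM. This comparison chose the gene, and its difference was 1.08 in log2(FPKM + 0.5), with a ratio of mean FPKM of 2.21. Of the 8 genes, only *Nrp2* was separated in this way, as were 0.158% of all genes.

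The same comparison in cTECs was not used to choose the gene, although the late days were the same and cells of 1 mouse may have entered both sorts. There the late libraries measured 3.50, 5.83, 6.47 and 7.47 FPKM, and the early ones 0.05 to 2.96 FPKM with a median of 1.42. The late and early groups did not overlap, which held for 0.568% of all genes. The cTEC libraries of NPC (2.74, 1.79 and 3.29 FPKM) were below all late ones in FPKM. In CPM they overlapped, since NPC replicate 5 had 19.6 and D16 had 19.3. The D-2 libraries (2.18, 5.26 and 2.03 FPKM) overlapped with the late ones. The log2 fold change of late over early was 2.12 (SE 0.288, limma-voom adjusted p = 0.000117), or 4.35-fold. *Nrp2* was the only 1 of the 8 genes called here, against 1.41% of all genes. Leaving out 1 library at a time, either 1 of the 4 late ones or the early D3 replicate 2, gave 1.97 to 2.18. Without cTEC D3 replicate 2 and D20 it was 1.99 (limma-voom adjusted p = 0.000101). It was not called by edgeR (1.85, adjusted p = 0.02), by limma-trend (1.66, adjusted p = 0.0181), or with D12 counted as late (1.56, limma-voom adjusted p = 0.169). DESeq2 called it (1.90, adjusted p = 0.0019).

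**Figure D3:**
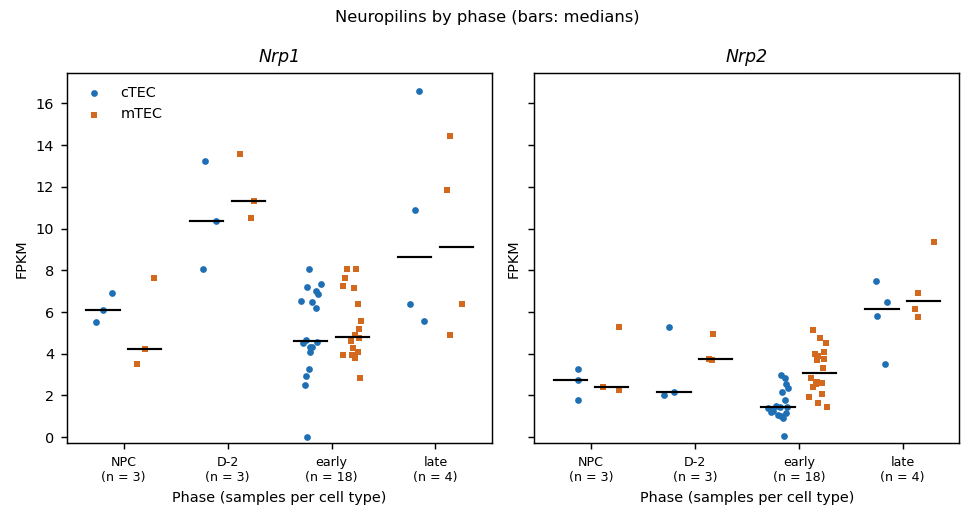
FPKM (vertical axis, linear and shared) of *Nrp1* (left) and *Nrp2* (right) in each library by phase (horizontal axes, NPC n = 3, D-2 n = 3, early n = 18, late n = 4 per cell type), with blue circles for cTECs, orange squares for mTECs and a bar at the median. For *Nrp2* the late points (cTEC 3.50 to 7.47, mTEC 5.77 to 9.36) lie above all early points of the same cell type, whereas for *Nrp1* late and early points overlap.

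Transcripts of other cells were also at other levels in late libraries. The summed FPKM of 11 fibroblast and pericyte markers had a median of 250 in early cTEC libraries (163 to 526) and 742 in late ones (450 to 871). In mTECs it was 525 (368 to 835) and 725 (699 to 877). That of 8 macrophage and dendritic cell markers was 13.7 (7.98 to 23.4) in early and 37.4 (6 to 45.1) in late cTEC libraries, and 51.4 (14.1 to 105) and 74.8 (62.6 to 200) in mTECs. The sum of 13 blood endothelial markers was 5.34 (0 to 12.2) in early and 6.77 (5.54 to 8.12) in late cTEC libraries, with 2 of the 13 at 0 in all late ones, and 13.5 (5.76 to 37) and 21.5 (13.5 to 32.1) in mTECs. Their part in the level of *Nrp2* was not tested. In bulk libraries, fewer cells of a type and less RNA per cell cannot be told apart.

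The other genes compared late against early in cTECs were not called. *Nrp1* had late values of 5.58, 16.6, 10.9 and 6.38 FPKM and a log2 fold change of 0.94 (SE 0.378, limma-voom adjusted p = 0.106). *Vegfd* had 1.21 (SE 0.36, limma-voom adjusted p = 0.0331). The D6 libraries that entered the choice of *Vegfd* were among the early ones. In late mTECs, *Nrp1* measured 4.88, 6.40, 14.4 and 11.9 FPKM.

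Between cell types *Nrp2* had medians of 1.91 FPKM in cTECs (0.05 to 7.47) and 3.73 FPKM in mTECs (1.44 to 9.36). The log2 fold change was −0.50 (SE 0.157, limma-voom adjusted p = 0.00667), below a fold-change of 2. The mean was higher in cTECs at only 2 of 16 time points. The lowest value, 0.05 FPKM, was 1 count in cTEC D3 replicate 2.

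*Cnmd*, the inhibitor gene, was higher in mTECs at all 16 time points. It ranged from 0 to 49.8 FPKM in cTECs with a median of 6.71, and from 5.83 to 58.5 FPKM in mTECs with a median of 19.4. The log2 fold change of cTECs over mTECs was −1.49 (SE 0.204, limma-voom adjusted p = 2.62e-08), so that mTECs had 2.8-fold more. Without the 4 libraries that stood apart it was −1.50.

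In mTECs *Cnmd* measured 5.83, 29.3 and 20.6 FPKM in NPC, 11.7, 9.53 and 12.3 FPKM at D-2, and 10.6, 20.5 and 8.79 FPKM at D0. It measured 12.8, 46.3 and 25.9 FPKM at D3, 39.1, 58.5 and 39.5 FPKM at D6, and 19.8, 18.2 and 29.6 FPKM at D12. The D6 libraries were above all NPC, D-2, D0 and D12 libraries and overlapped with D3. The single libraries at D1 and D2 had 11.1 and 18.9 FPKM, that at D8 29.4 FPKM, and the late ones 23.1, 9.94, 10.1 and 8.79 FPKM. The means were 45.7 ± 11.1 at D6, 28.3 ± 16.9 at D3, 22.5 ± 6.17 at D12, 18.6 ± 11.9 in NPC, 13.3 ± 6.28 at D0 and 11.2 ± 1.46 at D-2 (SD, n = 3), with overlap between every adjacent pair in that order.

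The difference that chose *Cnmd*, D6 minus D-2 in mTECs, was 1.97 in log2(FPKM + 0.5), with a ratio of mean FPKM of 4.09. In that comparison 5 of the 8 genes lay wholly lower at D6 (*Vegfa*, *Vegfc*, *Vegfd*, *Nrp1* and *Nrp2*), *Cnmd* lay wholly higher, and the groups did not overlap for 23.7% of all genes. In CPM *Vegfa* and *Vegfd* overlapped between these groups. In cTECs *Cnmd* measured 1.47, 4.91 and 6.56 FPKM at D-2 and 22, 14.2 and 21 FPKM at D6, again without overlap. The difference there was 2.19, with a ratio of mean FPKM of 4.43. D12 against D0 in mTECs had a log2 fold change of 0.53 (limma-voom adjusted p = 0.733), and late against early in cTECs −0.65 (SE 0.721, limma-voom adjusted p = 0.603), neither of them called.

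Transcripts of other cells also differed in level between D-2 and D6. The summed FPKM of 9 thymocyte markers was 18.4 to 20.6 at D-2 and 55.5 to 71.7 at D6 in cTECs, and 11.8 to 24.9 and 22.3 to 32 in mTECs. For the 11 fibroblast and pericyte markers it was 326 to 450 at D-2 and 163 to 217 at D6 in cTECs, but 299 to 389 and 453 to 666 in mTECs. For the 13 blood endothelial markers it was 6.8 to 17.6 and 3.27 to 6.48 in cTECs, and 16.7 to 30.6 and 5.76 to 16.7 in mTECs. For the 8 macrophage and dendritic cell markers it was 10.9 to 23.3 and 11.7 to 20.2 in cTECs, and 55.1 to 96.2 and 14.1 to 45.2 in mTECs, without overlap in mTECs. The sum of the 8 cTEC markers in cTECs was 1320 to 2320 at D-2 and 10100 to 11200 at D6. In mTECs it was 781 to 1430 at D-2 and 2440 to 4690 at D6. That of the 8 mTEC markers was 1860 to 2390 and 1400 to 1940 in cTECs, with overlap. In mTECs it was 2950 to 3310 and 4170 to 6180, without overlap. The part of these markers in the levels of the 8 genes at D6 and D-2 was not tested.

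In NPC libraries alone, the difference between cell types was called for *Vegfd* and *Pgf*, 2 of the 8 genes, against 5.12% of all genes. *Vegfd* had 5.50, 5.65 and 4.46 FPKM in cTECs and 0, 0 and 0.75 FPKM in mTECs. Its fitted log2 fold change of 6.90 (SE 1.34, limma-voom adjusted p = 0.000779) depends on the prior count, because 2 mTEC libraries had no count. *Pgf* had a log2 fold change of −5.12 (SE 0.979, limma-voom adjusted p = 0.000634), which likewise rests on a cTEC library without a count. *Cnmd* had −3.64 (SE 1.21, limma-voom adjusted p = 0.0433) and *Vegfb* 0.58 (SE 0.357, limma-voom adjusted p = 0.319), neither of them called. edgeR called 1 of the 8 genes here and 554 of all genes, and DESeq2 called 2 of the 8 and 1030 of all genes.

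Contrasts between time points with 3 libraries each called none of the 8 genes. In cTECs, limma-voom called 0 of 8 for D-2 against NPC (3 at an unadjusted p under 0.05, background 0.0947%), 0 for D12 against NPC (1 unadjusted, background 0.0%) and 0 for D12 against D0 (2 unadjusted, background 0.732%). In mTECs it called 0 of 8 for D-2 against NPC (2 unadjusted, background 0.569%), 0 for D12 against NPC (0 unadjusted, background 0.0%) and 0 for D12 against D0 (1 unadjusted, background 0.0%). edgeR and DESeq2 also called 0 of the 8 in each of the 6. Over all genes, in the same order, edgeR called 24, 0 and 28 in cTECs and 20, 0 and 0 in mTECs. DESeq2 called 122, 5 and 136 in cTECs and 148, 10 and 59 in mTECs. *Vegfd* in mTECs at D-2 against NPC had the largest fitted value, a log2 fold change of 5.78 (SE 1.71, limma-voom adjusted p = 0.0843), again against NPC libraries of 0, 0 and 16 counts.

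Without a test, FPKM groups separated for more of the 8. For D-2 against NPC in cTECs, *Vegfc*, *Vegfd*, *Pgf* and *Nrp1* lay wholly higher at D-2, which is 4 of 8 against 14.1% of all genes in either direction. In CPM *Vegfc* overlapped and *Vegfb* did not, so the number was 4 on both scales with another gene in it. In mTECs *Vegfd* and *Nrp1* did, against 14.4%. For D12 against NPC, *Vegfb* lay wholly higher and *Vegfd* wholly lower in cTECs (14.3% of all genes), and *Vegfa* lay wholly lower in mTECs (8.79%). In CPM both of the lower separations were lost, with *Vegfa* in mTECs at 27.7 to 33.5 at D12 and 23.7 to 77.7 in NPC. For D12 against D0, *Vegfb* lay higher and *Vegfd* and *Pgf* lower in cTECs (25.3%), and *Pgf* lay lower in mTECs (16.3%), where in CPM *Nrp1* also lay higher. In NPC, cTECs lay wholly above mTECs for *Vegfb* and *Vegfd* and wholly below for *Vegfc* and *Pgf* (20.7%).

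**Figure D4:**
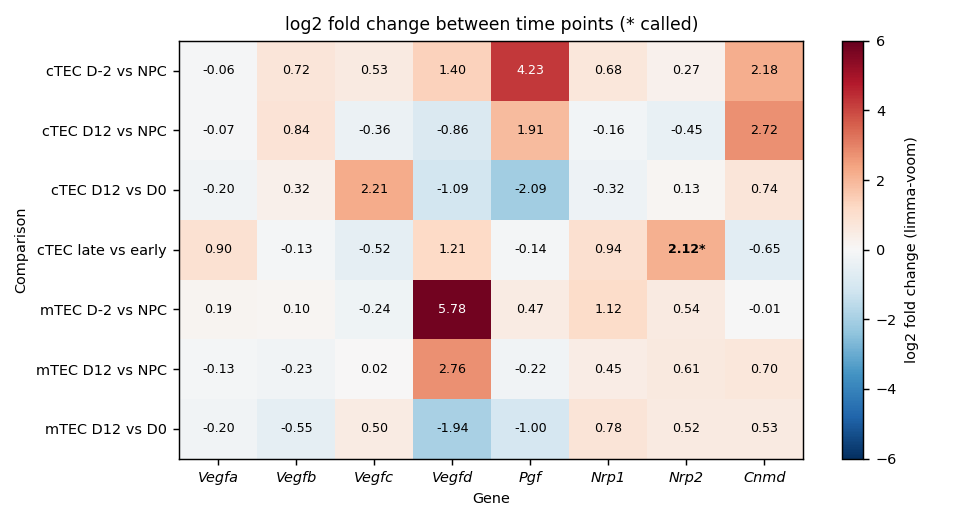
Limma-voom log2 fold changes of the 8 genes (horizontal axis) in the 7 tested contrasts between time points or phases (vertical axis), printed in the cells and coloured from −6 (blue, lower in the first-named group) to 6 (red, higher), with an asterisk where a gene was called. *Nrp2* late against early in cTECs (2.12) is the only called cell, and large values such as 5.78 for *Vegfd* and 4.23 for *Pgf* against NPC rest on libraries with few or no counts.

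Genes of the receptors that the ligands bind were mostly low in TECs. *Kdr*, the main VEGF-A receptor gene, had a mean of 0.0154 FPKM in cTECs and 0.055 FPKM in mTECs. *Flt4*, the receptor gene for VEGF-C and VEGF-D, had 0.818 and 0.878 FPKM, and *Flt1*, the receptor gene for VEGF-A, VEGF-B and PlGF, had 0.658 and 4.32 FPKM. The plexin genes *Plxna1* (42.8 and 31.5 FPKM) and *Plxnd1* (21 and 23.9 FPKM), whose products pair with neuropilins in semaphorin signalling, were well expressed. Counts of called genes between cell types in this and the next lists stand beside 4.7% of all genes called higher and 16.5% called lower in cTECs. Of 8 receptors and co-receptors 7 were tested, of which 0 were higher and 2 lower in cTECs, *Flt1* (log2 fold change −3.27) and *Plxna4* (−2.49). Of 8 blood endothelial markers tested, 4 were likewise lower in cTECs, and the summed FPKM of all 13 had a median of 5.94 (0 to 17.6) in cTECs and 16.9 (5.76 to 37) in mTECs. The part of endothelial transcripts in the level of *Flt1*, or of *Pgf*, was not tested.

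Class 3 semaphorins are the other neuropilin ligands. All 7 were tested between cell types (all genes 4.7% higher, 16.5% lower), and 5 were called, with *Sema3c* (2.19) and *Sema3e* (1.83) higher in cTECs and *Sema3a* (−1.43), *Sema3b* (−1.90) and *Sema3d* (−1.18) lower, as log2 fold changes. *Sema3f* was high in both, with means of 59.2 and 65.9 FPKM. In late against early cTECs, *Sema3g* was called higher beside *Nrp2*, with a log2 fold change of 5.08 (limma-voom adjusted p = 0.00235), from a median of 0.025 FPKM (0 to 1.29) in early libraries and 1.07 FPKM (0.48 to 4.5) in late ones, a low level in both. Of 7 tested genes for the processing of VEGF-C and VEGF-D 5 were called, with the protease genes *Plau* (1.67) and *Adamts2* (1.48) higher in cTECs and *Plat*, *Adamts3* and *Adamts14* lower.

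Of 16 tested genes of oxygen sensing and of the hypoxia response, which regulates *Vegfa* in many cells, 2 were higher in cTECs, *Epas1* (1.42) and *Egln2* (1.14), and *Adm* (−1.17) was lower, which is near the 21.2% of all genes called in either direction. *Hif1a* had means of 109 and 105 FPKM. Among 7 tested inhibitors of angiogenesis other than *Cnmd*, *Serpinf1*, the gene of pigment epithelium-derived factor, was higher in cTECs (2.93) and none was lower. Among 13 tested other angiogenic factors 4 were higher in cTECs (*Angpt1*, *Pdgfd*, *Fgf1* and *Cxcl12*) and 3 lower, with *Cxcl12* at 2.92 and *Angpt2*, the angiopoietin gene of remodelling vessels, at −5.85.

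Cartilage genes, like *Cnmd*, were mostly on the mTEC side. Of 18 cartilage genes 14 were tested, and 8 were lower in cTECs (*Col2a1* −5.18, *Matn1* −7.44, *Acan* −4.34, *Comp* −4.89, *Ucma* −2.96, *Cytl1* −5.27, *Col9a2* −3.47 and *Col11a1* −2.76, as log2 fold changes), whereas *Sox5* was higher. The median of the 14 was −2.86, beside −0.0296 over all genes tested. *Col2a1* and *Acan* encode the main collagen and the main proteoglycan of cartilage. Medullary TECs are known for expressing many genes of other tissues at low levels, and 16.5% of all genes were called on the same side.

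Calls with time in these lists are given beside the share of all genes called. Late against early in cTECs (1.41%), *Hgf* (1.44) and *Pdgfd* (1.65), genes of growth factors, were called higher. The fibroblast gene *Dcn* (1.27) and the pericyte gene *Rgs5* (1.5) were also called higher, as were the mTEC genes *Aire* (2.07) and *Cd80* (3.08), while *Foxn1* (−1.28) was called lower. At D12 against D0 in cTECs (0.732%) *Adamts2* (1.19) was called higher and *Adamts1* (−1.88) lower, and 5 of 8 cTEC markers, 4 of 9 thymocyte markers and 1 of 3 epithelial markers were called higher. At D-2 against NPC 3 of 8 cTEC markers were called lower in cTECs (0.0947%). In mTECs (0.569%) *Sox9* (1.48), a cartilage transcription factor, was called higher and the smooth muscle gene *Acta2* (−1.83) lower.

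Patterns like those of the 3 leading genes were sought over the 28 libraries of a cell type, as Pearson correlations of log2(FPKM + 0.5) that share library, depth and time course. For *Vegfd* in cTECs the 5 nearest of 10067 genes were *Pcyox1* (0.751), *Rfwd3* (0.729), *Arsa* (0.719), *Lgmn* (0.707) and *Cdca7l* (0.705). For *Cnmd* in mTECs they were *Gsdmd* (0.713), *Akap12* (0.691), *Ache* (0.689), *Dll4* (0.684) and *Ccl25* (0.684). *Dll4* encodes a Notch ligand and *Ccl25* a chemokine, both of which TECs use to support T-cell progenitors. For *Nrp2* in mTECs they were *Asprv1* (0.849), *Rac2* (0.826), *Sephs2* (0.796), *Marc1* (0.791) and *Adgb* (0.781). Among the 8 genes themselves, only *Nrp1* with *Nrp2* (0.674) and *Nrp1* with *Cnmd* (−0.55) in cTECs, and *Vegfb* with *Nrp2* (−0.503) in mTECs, had a correlation beyond 0.5 in size. Being the highest of all genes searched, such values are given as descriptions. Among the cTEC libraries, D3 replicate 2 had the lowest *Nrp1* and *Nrp2* (0 and 0.05 FPKM) and the highest *Cnmd* (49.8 FPKM). It is the library with the most undetected genes, and its part in the cTEC correlations among the 8 genes was not tested.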

How the data were processed

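The authors trimmed reads with Trimmomatic 0.35, aligned them to GRCm38 with STAR 2.5.1b and quantified genes with RSEM 1.2.28 (per the labels and the study's methods). The annotation release is not given in the sources used here. The deposited file of each sample held expected counts, TPM and FPKM made by the authors for 50600 genes, of which 50376 identifiers matched GENCODE M21. Expected counts, rounded to integers, were fitted with limma-voom (limma 3.58.1, R 4.3.3) after TMM scaling, over the 28 libraries of a cell type or, between cell types, all 56. Genes whose mean FPKM reached 0.5 were kept, in either cell type for the comparison between them. A gene was called when it differed by a factor of 2 or more and its p, adjusted over all genes tested by the Benjamini-Hochberg method, was 0.01 or less. Deposited FPKM and TPM were not tested, and FPKM was described with a pseudocount of 0.5. CPM was computed here. edgeR 4.0.16 (quasi-likelihood) and DESeq2 1.42.0 were alternatives, among other scalings, filters, designs and left-out libraries. The scripts were tested on simulated data. Because limma-voom followed the study, it took the place of edgeR as the main test.

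The 8 genes and the gene lists were chosen with earlier results of these data known. Genes named beside the 8 were members of these lists and, for *Vegfd* in cTECs and *Cnmd* and *Nrp2* in mTECs, the 5 genes of mean FPKM of at least 5 with the highest correlation. The sources do not say whether cTEC and mTEC libraries of the same replicate number came from 1 mouse. A count of 0 allows up to 3 counts, and this limit covers counting error only.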

Additional observations from a re-analysis of the deposited data

Results flagged for a closer look

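*Cnmd* in the late mTEC libraries measured 23.1 FPKM at D16, whereas D20, D24 and D28 had 9.94, 10.1 and 8.79 FPKM. The gap from the D16 library to the nearest other was 0.909 of the whole range, above Dixon's 95% critical value for 4 samples. Among the 16 late groups of the 8 genes in both cell types, 1 stood out in this way, and chance marks about 1 in 20 groups. The 4 libraries differ in day as well as in mouse, so day and mouse cannot be told apart.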

How the results depend on the processing

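Counts of called genes among the 8 were within 1.5 times of the reported ones in 126 of 141 alternatives over the 9 tested comparisons. Most of these came from comparisons that called none, where 0 against 0 counted as within. Where any gene was called, the number was 9 of 16 for late against early in cTECs. It was 11 of 11 between cell types over all time points and 9 of 15 between cell types in NPC. For D-2 against NPC in mTECs (0 called) the count was 1 at an adjusted p of 0.05, and 0 to 1 without single libraries (1, *Vegfd*, without mTEC NPC replicate 4, which left NPC libraries at 0). For late against early in cTECs (1 called) it was 0 with edgeR, with limma-trend and with D12 as late, 2 with quality weights, with the replicate block and at an adjusted p of 0.05, and 1 to 2 without single libraries (2, with *Vegfa*, without D24). Between cell types in NPC (2 called) it was 1 with edgeR, quality weights or the replicate block, and 1 to 2 without single libraries (1 without cTEC NPC replicate 4, mTEC NPC replicate 1 or mTEC NPC replicate 3). The causes were not tested. FPKM differences changed sign without single libraries for *Vegfa* at D6 minus D-2 in cTECs (0.10, range −0.25 to 0.54, but 0.68 in log2 CPM) and *Pgf* in mTECs (−0.03, range −0.47 to 0.19). Of the 589 alternatives of single genes, 559 counted as the same. For tests this meant the same direction and side of the threshold. For FPKM differences it meant the same direction and a distance from the reported value below the larger SD of the groups. Samples of the same replicate number did not deviate together (correlation over 0.1 in 2 of 16 pairs, range −0.14 to 0.126), so they were not used to pair samples, although same-numbered libraries may share a mouse, and the replicate block moved no other count of called genes beyond 1.5 times. Low counts limit *Vegfc*, *Vegfd* in mTECs and *Pgf* in NPC cTECs.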
